A study of Macaca mulatta with 27 samples.

Results

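The comparison described here set rhesus macaque pluripotent stem cells (PSCs) reprogrammed in 4i/L/b medium against the same line reprogrammed in TL2i medium, over all genes. The members were taken by library name, as 3 libraries of 4i/L/b cells and 3 of TL2i cells, which are 6 of the 27 libraries of the series. The study reprogrammed a rhesus embryonic stem cell line with several published media, labelled the products naive cells, and asked how far each medium reconfigured the transcriptome. The other libraries came from primed cells, the conventional starting state, and from cells of other media. Only the 6 primed libraries are used here, as a reference level.

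Both groups derived from LyonES-tGFP-(S3), which is 1 clone of the LyonES line. It carries a tauGFP reporter driven by the CAG promoter, which is active in all cell types, and a lentiviral STAT3-ERT2, a STAT3 protein fused to a tamoxifen-gated estrogen receptor domain. TL2i cells were cultured with tamoxifen, which switched STAT3-ERT2 on, and with LIF and inhibitors of MEK and GSK3β. 4i/L/b cells carried the same transgene but received no tamoxifen, so that the fusion protein was inactive. The 4i/L/b medium combines LIF and bFGF with inhibitors of MEK, GSK3, JNK, and p38 kinases. Thus MEK and GSK3 inhibition and LIF were common to both groups, tamoxifen was particular to TL2i, and bFGF with JNK and p38 inhibition was particular to 4i/L/b, and the effects of these ingredients cannot be told apart by this comparison. The labels number the libraries but do not say that they came from separate cultures, so that p-values measure the spread between these libraries, which may be technical.

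Naive pluripotency is the state of the pre-implantation epiblast, and primed pluripotency that of a later epiblast about to form the germ layers. LIF acts through its receptor and JAK kinases on the transcription factor STAT3, which sustains self-renewal of mouse embryonic stem cells. MEK passes FGF signals to ERK, whose activity drives a set of short-lived feedback genes, and GSK3 inhibition stabilizes β-catenin, the effector of Wnt signaling.

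Raw counts per gene were available for 17967 genes, and 13543 passed the filter on low counts and were tested. The libraries held 8375416 to 10610790 counts in 4i/L/b cells and 13359671 to 19482749 in TL2i cells, so that depth moved with the group without overlap. Levels are given in CPM, the count per unit of library size after TMM scaling, which corrects for differences in library composition, and a difference is called where edgeR's quasi-likelihood test gave an adjusted p below 0.05. Fold changes are 4i/L/b minus TL2i on the log2 scale, and levels are listed in the order of libraries 1, 2, and 3. Where a fold change is followed by ±, the second value is an approximate standard error (SE). It is the size of the fold change divided by the square root of the F statistic of the test. CPM are compared for 1 gene between libraries and not between genes, since they are not corrected for gene length.

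Of the 13543 genes tested, 5814 (42.9%) differed, 2923 (21.6%) being higher and 2891 (21.3%) lower in 4i/L/b cells. These shares are the background for every list count given here. The median log2 fold change of all genes tested was -0.02. Changes of at least 1 on the log2 scale were found for 965 higher and 771 lower genes, and changes of at least 3 for 91 and 116. Libraries of the same group correlated with Pearson's r of 0.984 to 0.988 across genes, and libraries of different groups with 0.925 to 0.934, a description over genes that are not independent. With scaling by library totals alone, 6386 genes differed, and 35.9% of them were higher instead of 50.3%, while the median of all genes moved to -0.12. The balance of higher and lower genes therefore depended on the scaling, although no gene called in both fits changed sign. Thinning all libraries to the smallest total left 5572 called genes. A fit of all 8 groups of the series with 1 shared estimate of the spread called 2929, and 96 of the 322 genes followed singly lost their call there, although none of their log2 fold changes moved by more than 0.0655. Among the genes named here, these were the pluripotency and STAT3 pathway genes SOX2, KLF4, TBX3, DPPA3, IL6ST, ICAM1, GFAP, and ESR1, the signaling genes T, CDX2, SP5, WNT9B, GDF7, NOG, ID2, GLI1, FOXH1, SPRED1, MAPK13, and MAPKAPK3, the lineage factors SOX17, GATA6, FOXC1, PECAM1, TEK, GSX2, NHLH1, DCX, and 6 HOX genes (HOXB1 and the 5 higher ones), the adhesion and mesenchymal genes CLDN3, CLDN6, LAMA3, SNAI1, SNAI2, PDGFRB, and PRRX2, and CCNE2, CDKN2B, BBC3, HK1, SDHA, SDHC, CYC1, CA12, GREB1, and CXCL8.

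The genes with the largest changes at moderate or high expression were picked among called genes whose groups did not overlap, so their separation follows from the choice. CCL2, a chemokine that attracts monocytes, reached 73.4, 77.9, and 52.1 CPM in 4i/L/b cells and 0.943, 2.13, and 0.432 CPM in TL2i cells (log2 fold change 5.81 ± 0.25, adjusted p = 5.7e-15). ADAMTS16, a secreted metalloprotease, had 297, 337, and 287 CPM against 7.497, 11.2, and 14.3 (log2 fold change 4.83 ± 0.14, adjusted p = 1.7e-17). Neither gene had more than 15 CPM in any TL2i library. The other 8 largest rises were LIF, the potassium channel gene KCNA1, LONRF2, the matrix gene EFEMP1, the protocadherin PCDHB2, the GTPase gene GEM, the immediate early gene EGR3, and INHBA, which encodes the activin A subunit. Their log2 fold changes ranged from 3.82 to 4.54.

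GABRP, a GABA receptor subunit of epithelia, showed the largest decrease, with 2.05, 0.999, and 2.05 CPM in 4i/L/b cells and 55.3, 94.8, and 67.8 CPM in TL2i cells (log2 fold change -5.37 ± 0.23, adjusted p = 6.0e-15). BMPER, a secreted modulator of BMP signaling, was uniform within each group, with 3.41, 3.75, and 3.62 CPM against 55.3, 57.6, and 51.4 (log2 fold change -3.93 ± 0.15, adjusted p = 6.3e-16). The other 8 largest decreases were the neural crest factors FOXD3 and TFAP2A, the dorsal neural tube factor PAX7, the matrix linker HAPLN1, E-cadherin (CDH1), the epithelial protease inhibitor SPINT1, IGF1, and the imprinted gene NNAT, with log2 fold changes of -3.69 to -3.23. For IGF1 (20.4, 41.5, and 25.2 CPM in TL2i cells), replicate 2 of TL2i was the highest library, as it was for CDH1, GABRP, HAPLN1, and SPINT1.

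The pluripotency factors were examined first, because all 6 libraries are labelled naive cells. POU5F1, which encodes OCT4, had 0.584, 0.5, and 1.66 CPM in 4i/L/b cells and 7.79, 5.21, and 6.62 CPM in TL2i cells, against 1122 to 1267 CPM in the 6 primed libraries. NANOG, its partner in the core network, had 1, 1, and 0 counts in the 4i/L/b libraries and 11, 1, and 5 in the TL2i libraries, too few to be tested, against 105 to 154 CPM in primed cells. Thus both of these defining markers were far below the primed level in both groups, and NANOG was at or near 0. PRDM14, TDGF1, and DPPA2 were also too low to be tested, and UTF1 had 0 counts in all 6 libraries. Fewer cells of a type and less RNA per cell cannot be told apart in bulk samples.

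Other core factors were expressed in both groups, and most of those tested were lower in 4i/L/b cells. Of 14 core factors found, 9 were tested and 7 were called lower (background, 21.3% of genes tested), with a median log2 fold change of -1.65 (all genes, -0.02). POU5F1 itself was lower (log2 fold change -2.79 ± 0.38, adjusted p = 2.6e-06). LIN28A, an RNA-binding protein that blocks let-7 maturation, had 43.3, 41.97, and 44.7 CPM in 4i/L/b cells against 289.6, 235, and 302 in TL2i cells (log2 fold change -2.67 ± 0.10, adjusted p = 4.8e-16), and 471 to 676 CPM in primed cells. SALL4, a zinc finger partner of OCT4, had 23.9, 26.2, and 22.6 against 93.3, 93.2, and 90.5 CPM (log2 fold change -1.93 ± 0.10, adjusted p = 1.3e-13). For both genes the 3 TL2i libraries lay between the 4i/L/b and the primed libraries. L1TD1, ZFP42, and LIN28B were also lower, with log2 fold changes of -1.65, -1.76, and -1.45. SOX2, which is shared by pluripotent and neural cells, differed least among the called members, with 77.3, 77.3, and 73.5 against 89.8, 87.7, and 93.9 CPM (log2 fold change -0.25 ± 0.08, adjusted p = 0.0173), and was not called without 1 of several libraries (adjusted p = 0.0784 to 0.0874 without 4i/L/b replicate 3 or TL2i replicate 3).

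The naive-state factors moved in both directions, with 3 higher and 4 lower of 10 tested (background, 21.6% higher and 21.3% lower) and a median of -0.44, which became 0.21 where at least 10 counts were required in every library, so that no direction is read from it. KLF5, a Krüppel-like factor of the early embryo and of epithelia, was the main rise, with 182, 150.01, and 146 CPM in 4i/L/b cells and 18.6, 24.9, and 20.1 in TL2i cells (log2 fold change 2.91 ± 0.11, adjusted p = 1.1e-15). KLF4, another member of this family, rose from a low level, with 4.09, 2.498, and 3.52 against 1.29, 1.78, and 1.51 CPM (log2 fold change 1.15 ± 0.38, adjusted p = 0.0159), but was not called without 1 of several libraries (adjusted p = 0.0527 to 0.097 without 4i/L/b replicate 1 or 3 or TL2i replicate 1). TFAP2C, an activator of naive-specific enhancers, was lower in 4i/L/b cells, with 17.8, 22.98, and 24.9 against 55.6, 51.5, and 48.1 CPM (log2 fold change -1.24 ± 0.12, adjusted p = 1.8e-08). TBX3, a T-box factor of naive mouse cells, fell as well (log2 fold change -1.93 ± 0.17, adjusted p = 1.7e-09). DPPA3, a germ cell and naive gene, had at most 3.25 CPM and was lower (log2 fold change -1.77 ± 0.53, adjusted p = 0.00978), a call that rested on single libraries (adjusted p = 0.0531 to 0.0741 without 4i/L/b replicate 1 or TL2i replicate 2). TFE3, whose protein enters the nucleus of naive cells, had 60.2, 57.95, and 62.4 against 52.5, 51.1, and 52.4 CPM and was not called (log2 fold change 0.21 ± 0.09, adjusted p = 0.0632). KLF17, DPPA5, ARGFX, and FGF4 had 0 counts in all 6 libraries, and TFCP2L1 had 2 to 5 counts in 4i/L/b and 6 to 14 in TL2i libraries.

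Of 15 genes that mark the primed state, 5 were higher and 7 lower, with a median of -0.10. The surface sialomucin PODXL had 117, 139, and 126 CPM in 4i/L/b cells and 748, 1082, and 895 in TL2i cells (log2 fold change -2.83 ± 0.11, adjusted p = 1.6e-15). The forebrain factor ZIC2 fell by 0.83 on the log2 scale. The rises included the surface glycoprotein THY1 (log2 fold change 2.14 ± 0.13, adjusted p = 1.6e-12), FST, an activin antagonist (log2 fold change 0.79 ± 0.08, adjusted p = 4.1e-08), and DUSP6 and ETV4, which also stand on the list of MEK-ERK genes described below (ETV4, adjusted p = 0.0501 without 4i/L/b replicate 2). The list therefore did not move in 1 direction.

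**Figure D1:**
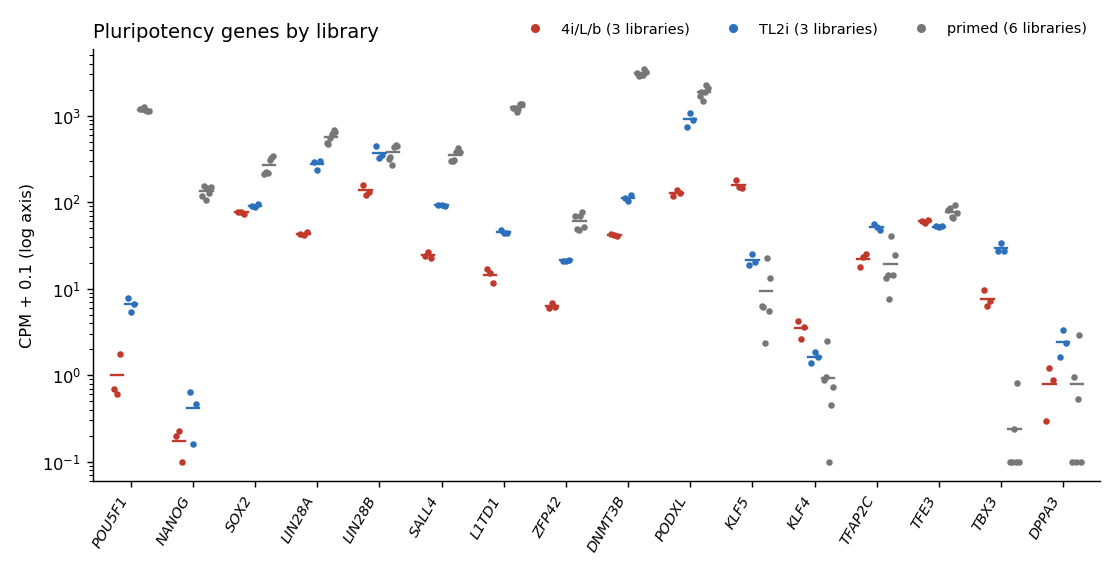
CPM plus 0.1 on a log axis for 16 pluripotency genes, with 1 point per library and a bar at the mean, in 4i/L/b (red, 3 libraries), TL2i (blue, 3), and primed cells (grey, 6). NANOG sits at the bottom in both reprogrammed groups, and POU5F1 lies far below its primed level in both. KLF5 is highest in 4i/L/b cells, and LIN28A, SALL4, and PODXL step up from 4i/L/b to TL2i to primed cells.

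Both media contain a MEK inhibitor, and the feedback genes of the MEK-ERK pathway were higher in 4i/L/b cells. All 20 genes of the list were higher in 4i/L/b cells (background, 21.6% of genes tested), with a median log2 fold change of 1.69, and none overlapped between groups (25.8% of all genes tested were higher without overlap). Their summed level was 3594 to 3848 CPM in the 4i/L/b libraries and 1041 to 1062 CPM in the TL2i libraries.

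Among the transcription factors, EGR3 reached 336, 385, and 323 CPM in 4i/L/b cells and 19.2, 20.4, and 17.2 in TL2i cells (log2 fold change 4.19 ± 0.10, adjusted p = 7.3e-19). EGR1, the classic immediate early gene, reached 472, 414, and 446 against 43.2, 35.9, and 29.9 CPM (log2 fold change 3.60 ± 0.11, adjusted p = 1.7e-17). EGR2 had 75.6, 69.6, and 73.4 against 8.14, 8.28, and 5.901 CPM (log2 fold change 3.28 ± 0.13, adjusted p = 1.5e-15). The Sprouty genes, inhibitors of receptor tyrosine kinase signaling that ERK itself induces, behaved alike. SPRY4 had 141, 128, and 122 CPM in 4i/L/b cells and 15.2, 15.7, and 13.4 in TL2i cells (log2 fold change 3.14 ± 0.10, adjusted p = 6.2e-17), and SPRY1 and SPRY2 rose by 3.40 and 2.5. DUSP6, the ERK phosphatase most directly controlled by ERK, had 352, 303, and 328 against 54.96, 45.9, and 56.3 CPM (log2 fold change 2.65 ± 0.09, adjusted p = 1.9e-16). In the 6 primed libraries these genes had 228 to 358 CPM (EGR3), 1110.3 to 1748 CPM (EGR1), 247 to 489 CPM (SPRY4), and 514 to 679.6 CPM (DUSP6). Hence 4i/L/b cells were within or above the primed range for EGR3, and below it for EGR1, SPRY4, and DUSP6, while TL2i cells were below it for all 4 genes. The smallest rises were those of SPRED1 (log2 fold change 0.50 ± 0.10, adjusted p = 1.6e-04) and SPRED2 (log2 fold change 0.84 ± 0.09, adjusted p = 3.4e-08).

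Inhibitors of JNK and p38 were in the 4i/L/b medium only. Of 26 genes of the p38, JNK, and AP-1 list, 16 were higher and 2 lower in 4i/L/b cells (background, 21.6% higher and 21.3% lower), with a median of 0.47. Of the 16, 8 changed by at least 1 on the log2 scale. The rises were led by the AP-1 subunit FOSB, with 23.9, 34.6, and 25.9 against 3.43, 3.25, and 2.73 CPM (log2 fold change 3.14 ± 0.19, adjusted p = 2.8e-12). JUN, the AP-1 subunit that JNK phosphorylates, had 271, 267, and 273 CPM in 4i/L/b cells and 104, 108, and 102 in TL2i cells (log2 fold change 1.36 ± 0.08, adjusted p = 6.4e-13). FOS had 42.6, 37.5, and 33.9 against 12.01, 7.75, and 13.03 CPM (log2 fold change 1.80 ± 0.16, adjusted p = 3.3e-09). DUSP1 and DUSP10, phosphatases that inactivate p38 and JNK, rose by 2.44 and 2.32. Of the kinases targeted by the inhibitors, MAPK8 (JNK1) was not called (log2 fold change 0.15 ± 0.09, adjusted p = 0.165), and neither was MAPK14 (p38α; log2 fold change -0.22 ± 0.09, adjusted p = 0.0527). The 2 lower members were the p38 isoform MAPK13 (log2 fold change -0.62 ± 0.24, adjusted p = 0.0386) and the p38 substrate MAPKAPK3 (log2 fold change -0.37 ± 0.12, adjusted p = 0.013), neither of which held without single libraries (adjusted p = 0.0738 to 0.184 without 4i/L/b replicate 1 or 2 or TL2i replicate 2 or 3 for MAPK13, and adjusted p = 0.0503 to 0.0562 without 4i/L/b replicate 3 or TL2i replicate 1 or 3 for MAPKAPK3).

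The LIF and STAT3 axis is where the media differ by tamoxifen. Counts of STAT3 were lower in 4i/L/b cells, with 369, 361, and 354 CPM against 799, 799, and 775 in TL2i cells (log2 fold change -1.13 ± 0.08, adjusted p = 2.2e-11), and were 98.8 to 219 CPM in primed cells. Counts of ESR1, whose hormone-binding domain is the origin of the ERT2 part, were higher, with 801, 747, and 768 against 235, 231, and 229.7 CPM (log2 fold change 1.73 ± 0.08, adjusted p = 1.6e-14). The primed libraries split for ESR1, with 0 to 0.848 CPM in 3 columns sharing 1 letter and 356 to 406 CPM in the 3 columns sharing the other. The labels do not say whether both sets of primed libraries carried STAT3-ERT2, and the primed ranges given here span both sets. Counts per gene do not tell transcripts of the STAT3-ERT2 vector from those of the cell's own STAT3 and ESR1, so the levels of the transgene were not measured here.

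The endogenous LIF gene was strongly expressed in 4i/L/b cells, with 113, 117, and 114 CPM against 4.57, 4.62, and 5.69 in TL2i cells (log2 fold change 4.54 ± 0.12, adjusted p = 1.4e-18). LIFR, the specific receptor chain, was lower, with 98.2, 113, and 97.9 against 138, 230.1, and 166 CPM (log2 fold change -0.79 ± 0.12, adjusted p = 1.6e-05), whereas the shared chain IL6ST (gp130) was higher (log2 fold change 0.50 ± 0.08, adjusted p = 3.6e-05). The kinase JAK1 rose by 0.70, and JAK2 was not called (log2 fold change -0.06 ± 0.16, adjusted p = 0.778). Of 20 STAT3 target genes tested, 9 were higher and 1 lower (background, 21.6% higher and 21.3% lower), with a median of 0.43. A2M, an acute-phase protease inhibitor, had 1184, 1312, and 1201 CPM in 4i/L/b cells and 261, 363, and 292 in TL2i cells (log2 fold change 2.01 ± 0.10, adjusted p = 1.4e-13). JUNB, an AP-1 subunit, rose by 2.23, the kinase gene PIM3 by 1.63, and the adhesion receptor ICAM1 by 1.5. SOCS3, the negative feedback gene most used as a readout of STAT3, had 25.1, 26.1, and 21.8 against 22.3, 20.9, and 21.95 CPM and was not called (log2 fold change 0.16 ± 0.13, adjusted p = 0.325). The 1 lower target was GFAP (log2 fold change -0.69 ± 0.15, adjusted p = 8.8e-04).

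Of 18 Wnt target genes tested, 4 were higher and 8 lower, with a median of -0.40. AXIN2, the general feedback target of β-catenin, had 218, 218, and 236 CPM in 4i/L/b cells and 401, 399.7, and 372 in TL2i cells (log2 fold change -0.80 ± 0.08, adjusted p = 9.6e-09), against 4.33 to 10.5 CPM in primed cells. SP5 was lower as well, with 7.31, 7.87, and 7.63 against 21.4, 14.4, and 18.7 CPM (log2 fold change -1.26 ± 0.18, adjusted p = 4.5e-06). LEF1 had 159.8, 147, and 146 against 174, 144, and 146 CPM and was not called (log2 fold change -0.04 ± 0.09, adjusted p = 0.755), although it had at most 0.889 CPM in primed cells. The stem cell receptor LGR5 went the other way, with 23.3, 30.6, and 24.5 against 2.68, 7.101, and 4.68 CPM (log2 fold change 2.45 ± 0.23, adjusted p = 7.7e-09). CDX2 fell to 2, 0, and 5 counts per library from 64, 87, and 86, and T, the brachyury gene, from 24, 31, and 44 counts to 0, 2, and 0, at least a 6.45-fold decrease at a floor of 3 counts per library. Among Wnt ligands and secreted modulators, 10 were higher and 9 lower of 27 tested, with the LGR ligand RSPO1 (log2 fold change 2.00 ± 0.20, adjusted p = 1.5e-08) and WNT9B (log2 fold change 1.99 ± 0.54, adjusted p = 0.00413) higher, and WNT7B (log2 fold change -3.23 ± 0.47, adjusted p = 5.9e-06) and the antagonist FRZB (log2 fold change -2.93 ± 0.15, adjusted p = 1.5e-13) lower.

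**Figure D2:**
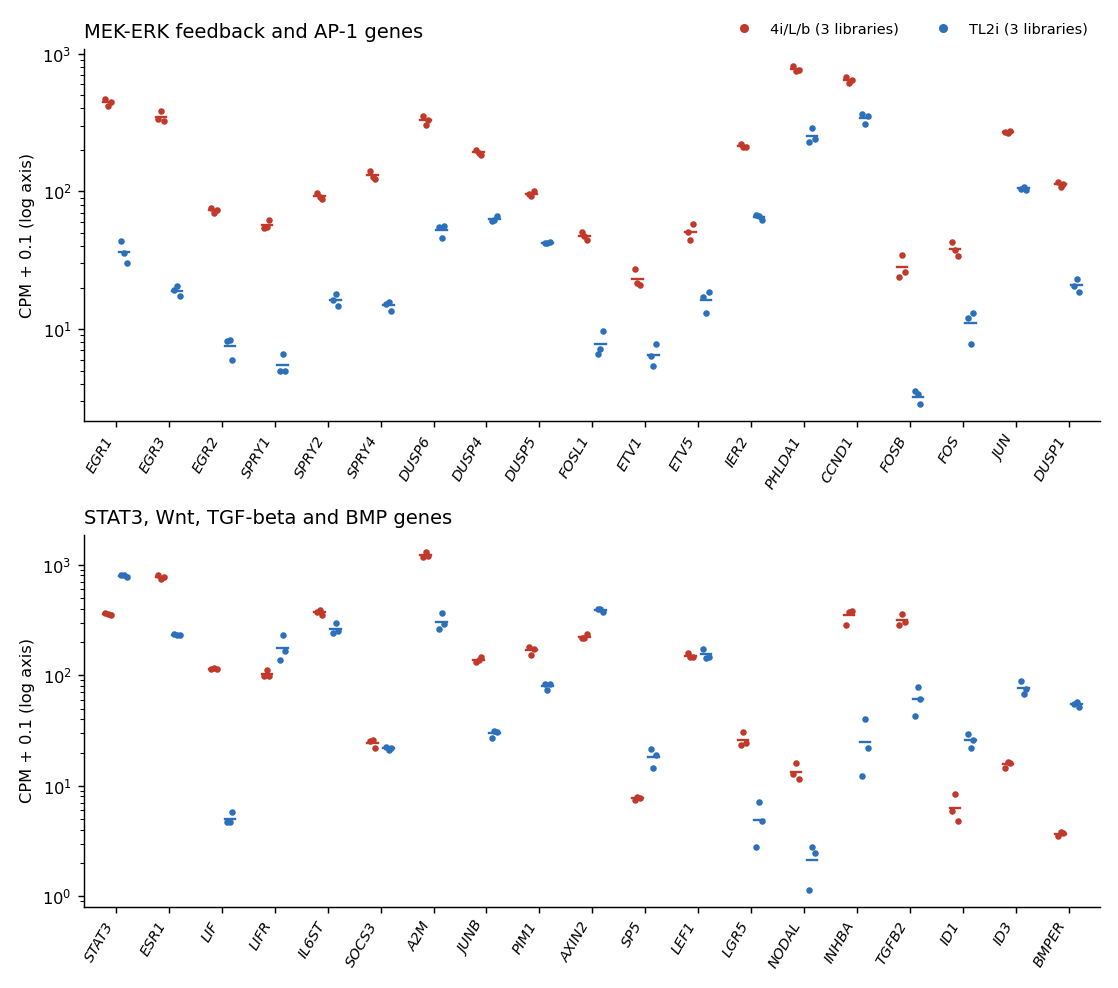
CPM plus 0.1 on a log axis for genes of the pathways that the media act on, with 1 point per library and a bar at the mean of the 3 libraries of 4i/L/b (red) and TL2i (blue). All MEK-ERK and AP-1 genes in the upper panel are higher in 4i/L/b cells. The panel is a selection that holds FOSB, FOS, JUN, and DUSP1 of the p38, JNK, and AP-1 list. The 8 members of that list not called, such as MAPK8 and MAPK14, and the 2 lower ones, MAPK13 and MAPKAPK3, are not drawn. In the lower panel LIF and INHBA are higher and STAT3, LIFR, AXIN2, SP5, ID1, ID3, and BMPER lower in 4i/L/b cells, while the groups overlap for SOCS3 and LEF1 and the remaining genes are higher.

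The RNA levels of most called genes on the lists of the 2 arms of the TGF-beta superfamily moved in opposite directions. Each list mixes ligands, receptors, and antagonists, and signaling itself was not measured. Of 21 genes of the Nodal, Activin, and TGF-beta list, 16 were higher (10 in the fit of all 8 groups) and 2 lower in 4i/L/b cells, with a median of 1.08. Among the ligands, INHBA had 284, 376, and 384 CPM in 4i/L/b cells and 12.2, 39.9, and 22.1 in TL2i cells (log2 fold change 3.82 ± 0.23, adjusted p = 2.8e-12), NODAL rose by 2.72 ± 0.29, and TGFB2 by 2.37 ± 0.14. TGFB3 and INHBB rose as well, by 1.99 ± 0.20 and 2.24 ± 0.39. The receptor gene TGFBR2 rose by 1.91 ± 0.16. SMAD2 and SMAD4, the transducers, were not called (-0.15 ± 0.08 and -0.08 ± 0.09). The 2 lower members were FOXH1, a nuclear partner of SMAD2 (log2 fold change -1.38 ± 0.47, adjusted p = 0.0208; adjusted p = 0.128 to 0.131 without 4i/L/b replicate 1 or TL2i replicate 3), and the activin receptor ACVR2B (log2 fold change -0.54 ± 0.08, adjusted p = 3.8e-06).

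Of 23 BMP and ID genes, in contrast, 13 were lower and 4 higher, with a median of -0.56. The ID genes are direct targets of BMP. ID3 had 14.4, 16.2, and 15.8 CPM in 4i/L/b cells and 88.6, 67.3, and 75.7 in TL2i cells (log2 fold change -2.32 ± 0.12, adjusted p = 2.0e-13), and ID1 had 5.84, 8.24, and 4.696 against 29.4, 21.8, and 25.8 CPM (log2 fold change -2.05 ± 0.19, adjusted p = 4.3e-09). ID4 and ID2 fell by 1.52 and 0.46 on the log2 scale. The ligand BMP4 was lower (log2 fold change -1.80 ± 0.14, adjusted p = 2.6e-10), as were the roof plate ligand GDF7 (log2 fold change -1.73 ± 0.22, adjusted p = 6.5e-07) and the antagonist NOG (log2 fold change -1.72 ± 0.18, adjusted p = 3.0e-08). Thus these ligands and the ID targets were lower together. The receptor gene BMPR2 was higher (log2 fold change 1.23 ± 0.09, adjusted p = 1.1e-10).

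The FGF list held 7 higher and 2 lower of 16 genes tested. The bFGF gene FGF2 was not called, with 17.4, 16.9, and 15.4 against 13.9, 16.98, and 17.8 CPM (log2 fold change 0.03 ± 0.15, adjusted p = 0.875), and neither was the main receptor FGFR1 (log2 fold change -0.13 ± 0.08, adjusted p = 0.241). FGFR3 was lower, with 21.7, 19.4, and 20.9 against 77.1, 85.3, and 102 CPM (log2 fold change -2.09 ± 0.11, adjusted p = 5.5e-13), and the decoy receptor FGFRL1 higher (log2 fold change 1.94 ± 0.13, adjusted p = 2.0e-11). Of 14 retinoic acid genes tested, 8 were lower and 2 higher, with a median of -0.74. The binding protein CRABP2 had 142, 143, and 150.2 against 597, 382, and 517 CPM (log2 fold change -1.78 ± 0.11, adjusted p = 7.6e-12), and the receptor RARG 3.02, 4.37, and 5.19 against 24.4, 24.1, and 26.8 CPM (log2 fold change -2.58 ± 0.19, adjusted p = 7.1e-11). Among the higher members was CYP26A1, the enzyme that degrades retinoic acid and is induced by it (log2 fold change 0.70 ± 0.09, adjusted p = 1.6e-06).

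Hedgehog genes were mostly lower, with 8 lower and 2 higher of 14, among them the target genes PTCH1 (log2 fold change -1.14 ± 0.09, adjusted p = 2.1e-10) and GLI1 (log2 fold change -1.13 ± 0.20, adjusted p = 5.5e-05). Of 19 Notch genes tested, 7 were higher and 4 lower. The ligand JAG1 had 531, 621, and 551 CPM in 4i/L/b cells and 147, 189.6, and 157 in TL2i cells (log2 fold change 1.78 ± 0.09, adjusted p = 2.9e-13), while the target HES1 was lower (log2 fold change -1.04 ± 0.12, adjusted p = 2.4e-07). The Hippo list held 6 higher and 4 lower genes of 13. Its rises were led by CTGF, a secreted target of YAP and of TGF-beta, with 2996, 3558, and 3404 CPM against 367, 447, and 373 (log2 fold change 3.07 ± 0.10, adjusted p = 8.7e-17). ANKRD1 and CYR61 rose by 2.01 and 1.3, whereas YAP1 itself was not called (log2 fold change 0.04 ± 0.08, adjusted p = 0.748) and TEAD4 was lower (log2 fold change -1.72 ± 0.17, adjusted p = 1.1e-08).

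Epithelial genes formed 1 of the most uniform lists. Of 17 epithelial junction and keratin genes tested, 15 were lower and 1 higher in 4i/L/b cells, with a median of -2.08, or -1.87 with 2 genes at the floor of 3 counts set to their bounds. CDH1 had 2.14, 3.12, and 2.84 CPM in 4i/L/b cells and 23.2, 36.98, and 31.4 in TL2i cells (log2 fold change -3.51 ± 0.21, adjusted p = 3.1e-12), against 30.7 to 106 CPM in primed cells. EPCAM, an adhesion molecule of epithelia and pluripotent cells, had 8.48, 13.2, and 10.1 against 37.7, 70.00, and 48.4 CPM (log2 fold change -2.31 ± 0.19, adjusted p = 7.8e-10). The epithelial splicing factor ESRP1 had 1.95, 1.998, and 2.25 against 9.43, 14.7, and 11.01 CPM (log2 fold change -2.5 ± 0.26, adjusted p = 3.2e-08), and claudins CLDN7 and CLDN3 fell by 3.12 and 2.81 on the log2 scale. GRHL2, a transcription factor of epithelial identity, had 0, 1, and 1 counts in 4i/L/b libraries and 103, 99, and 53 in TL2i libraries, at least a 15.4-fold decrease. The primed libraries also split for GRHL2, with 150 to 296 counts in the columns sharing 1 letter and 0 in those sharing the other. The tight junction gene CLDN6 was the only member that rose (log2 fold change 0.37 ± 0.08, adjusted p = 9.3e-04).

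Genes of fibroblasts and mesenchyme went the opposite way. Of 24 genes tested, 22 were higher and 2 lower in 4i/L/b cells, with a median of 1.10. Their summed level was 30050 to 37341 CPM in 4i/L/b libraries and 13408 to 21449 CPM in TL2i libraries. The type I collagen gene COL1A1 had 7937, 10320.1, and 9972 CPM in 4i/L/b cells and 1506, 3341, and 2489 in TL2i cells (log2 fold change 1.94 ± 0.18, adjusted p = 3.4e-09). DCN and LUM, small proteoglycans of connective tissue, had 26.6, 47.7, and 52.1 against 4.07, 7.69, and 5.69 CPM (log2 fold change 2.86 ± 0.22, adjusted p = 2.4e-10) and 32.6, 63.6, and 46.7 against 8.79, 15.6, and 9.79 CPM (log2 fold change 2.06 ± 0.20, adjusted p = 1.5e-08). Neither was detected in any of the 6 primed libraries. S100A4 and the collagen crosslinker LOX rose by 4.23 and 2.31. The 2 lower members were PDGFRB, with overlapping groups (log2 fold change -0.43 ± 0.13, adjusted p = 0.01; adjusted p = 0.0857 to 0.0878 without 4i/L/b replicate 1 or TL2i replicate 2), and PRRX2, with at most 1.58 CPM (log2 fold change -1.64 ± 0.57, adjusted p = 0.0239; adjusted p = 0.0552 to 0.115 without 4i/L/b replicate 1, 2, or 3 or TL2i replicate 1 or 3). The part that mesenchymal cells or a mesenchymal program have in the other differences was not tested. TL2i replicate 2 had the highest level of COL1A1, LOX, and S100A4 within its group and replicate 1 the lowest.

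The 5 most counted genes that changed by at least 1 were, besides COL1A1, THBS1, a matricellular activator of TGF-beta (log2 fold change 2.13 ± 0.12, adjusted p = 1.1e-12), IGFBP5 (log2 fold change 1.34 ± 0.12, adjusted p = 4.0e-09), COL1A2 (log2 fold change 1.37 ± 0.12, adjusted p = 4.2e-09), and CTGF. Of 10 regulators and effectors of epithelial-mesenchymal transition, several of which also stand on the fibroblast list, 7 were higher and 1 lower. ZEB1, a repressor of CDH1, had 271, 239, and 229.9 CPM in 4i/L/b cells and 86.4, 87.6, and 79.2 in TL2i cells (log2 fold change 1.55 ± 0.08, adjusted p = 4.9e-13), and N-cadherin (CDH2) had 785, 896, and 819 against 512, 552, and 486 CPM (log2 fold change 0.69 ± 0.08, adjusted p = 3.2e-07). SNAI2 rose by 0.68 ± 0.14, SNAI1 was lower with overlapping groups (log2 fold change -0.52 ± 0.21, adjusted p = 0.0486; adjusted p = 0.076 to 0.249 without 4i/L/b replicate 1 or 3 or TL2i replicate 1 or 3), and TWIST1 (0.16 ± 0.26) and ZEB2 (-0.13 ± 0.09) were not called. Of 25 integrins and laminins, 13 were higher and 6 lower. The collagen receptor ITGA2 rose most (log2 fold change 3.26 ± 0.16, adjusted p = 1.3e-13) and the fibronectin receptor chain ITGAV by 1.69, while the epithelial laminin chain LAMA3 was lower (log2 fold change -1.91 ± 0.39, adjusted p = 3.4e-04).

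Genes of trophoblast and amnion were lower in 4i/L/b cells in 11 of 14 cases tested (7 in the fit of all 8 groups and 2 where at least 10 counts were required in every library) and higher in 1, with a median of -3.23, or -2.90 with 2 genes at the floor set to their bounds. Several lower members, among them HAND1, CDX2, GATA3, and VTCN1, averaged at most 0.424 CPM in 4i/L/b cells. They passed the filter on low counts through the TL2i libraries, so the count and the median follow in part from the filter. Requiring 10 counts in every library drops such genes instead of testing them. GATA3 had 0.39, 0.375, and 0.294 CPM in 4i/L/b cells and 9.43, 14.1, and 12.2 in TL2i cells (log2 fold change -5.04 ± 0.35, adjusted p = 3.6e-11). TFAP2A, which also serves the neural crest, had 7.11, 7.62, and 9.49 against 91.1, 79.1, and 79.8 CPM (log2 fold change -3.36 ± 0.13, adjusted p = 7.8e-16). HAND1 had 3, 3, and 0 counts in the 4i/L/b libraries and 113, 162, and 83 in the TL2i libraries, at least a 22.04-fold decrease. VTCN1 was also lower, with 0.292, 0, and 0.978 against 5.61, 7.397, and 8.42 CPM (log2 fold change -3.95 ± 0.47, adjusted p = 3.2e-07), but both groups were far below the 106 to 140.05 CPM of primed cells. TEAD3, which is also on the Hippo list, was the only member that rose (log2 fold change 0.58 ± 0.11, adjusted p = 2.3e-04), and ELF5, TP63, CGA, CYP19A1, and GCM1 were too low to be tested.

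Of 14 endoderm genes tested, 10 were lower (2 in the fit of all 8 groups) and 3 higher, with a median of -1.41. SOX17, an endoderm determinant, had 3.897, 3.87, and 3.03 CPM in 4i/L/b cells and 15.7, 28.7, and 23.3 in TL2i cells (log2 fold change -2.65 ± 0.23, adjusted p = 1.3e-09). GATA6 had 7.21, 9.99, and 8.12 against 14.3, 23.1, and 19.1 CPM (log2 fold change -1.16 ± 0.19, adjusted p = 2.8e-05). The apolipoproteins APOA1 and APOB fell by 2.62 and 4.44 on the log2 scale. TL2i replicate 2 was the highest library for SOX17, GATA6, APOA1, and APOB. EOMES, a T-box factor of mesendoderm, was an exception, with 6.43, 9.99, and 6.65 CPM in 4i/L/b cells and 0.199, 0.178, and 0.288 in TL2i cells (log2 fold change 5.08 ± 0.44, adjusted p = 1.8e-09). Of 10 mesoderm genes tested, 4 were higher and 1, T, lower, at levels of up to 12 CPM in single libraries. OSR1 (log2 fold change 4.24 ± 0.52, adjusted p = 4.4e-07) and FOXC1 (log2 fold change 1.26 ± 0.22, adjusted p = 4.8e-05) rose. Of 6 endothelial and blood genes tested, RUNX1 (log2 fold change 2.56 ± 0.15, adjusted p = 2.8e-12), FLT1 (log2 fold change 2.43 ± 0.27, adjusted p = 1.3e-07), KDR, and TEK were higher and PECAM1 lower (log2 fold change -2.14 ± 0.42, adjusted p = 2.3e-04).

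Neuron genes were mostly higher. Of 26 neuron genes, 16 were higher (7 in the fit of all 8 groups) and 1 lower in 4i/L/b cells, with a median of 0.46. The neurofilament genes NEFM and NEFL had 228, 197, and 208 against 31.4, 33.8, and 31.4 CPM (log2 fold change 2.71 ± 0.09, adjusted p = 6.7e-17) and 155, 128, and 136 against 15.4, 18.3, and 19.1 CPM (log2 fold change 2.99 ± 0.11, adjusted p = 2.4e-16). GAP43, a growth cone protein, had 76.96, 74.2, and 76.02 against 27.8, 29.2, and 27.4 CPM (log2 fold change 1.43 ± 0.09, adjusted p = 1.6e-11), and SCG2, a granin, rose by 5.13 from at most 0.546 CPM in TL2i cells. The guidance receptor DCC rose by 1.63, and the single lower member was NHLH1 (log2 fold change -0.77 ± 0.26, adjusted p = 0.0187; adjusted p = 0.0548 to 0.0962 without 4i/L/b replicate 1 or 3 or TL2i replicate 2 or 3). The general markers moved less, with TUBB3 at 0.80 ± 0.08 and DCX at 0.45 ± 0.10. RBFOX3, a marker of mature neurons, had at most 2.98 CPM in any library and was not called.

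Of 20 neural progenitor genes, 4 were higher and 6 lower (background, 21.6% higher and 21.3% lower). NES, the progenitor intermediate filament, had 2418, 2703, and 2616 CPM against 2312, 2364, and 2512 and was not called (log2 fold change 0.11 ± 0.08, adjusted p = 0.329), and PAX6 was low in both groups (5.75, 5.12, and 3.91 against 6.11, 4.32, and 6.19 CPM, not called). SOX3, SOX21, and ZIC1 fell by 2.44, 1.76, and 0.94 on the log2 scale. The factors that pattern the neural tube along its dorsoventral axis were lower in 11 of 13 cases (4 in the fit of all 8 groups) and higher in 1, with a median of -1.65. PAX7 had 4.97, 3.37, and 2.54 CPM in 4i/L/b cells and 43.4, 40.2, and 48.9 in TL2i cells (log2 fold change -3.60 ± 0.18, adjusted p = 1.4e-13). The roof plate factors MSX1 and LMX1A had 10.4, 8.37, and 10.7 against 54.3, 48.5, and 56.1 CPM (log2 fold change -2.42 ± 0.13, adjusted p = 4.8e-13) and 7.598, 9.74, and 13.1 against 50.8, 47.2, and 52.5 CPM (log2 fold change -2.30 ± 0.15, adjusted p = 1.2e-11). The 1 higher member was GSX2, a factor of the lateral ventral forebrain (log2 fold change 2.80 ± 0.57, adjusted p = 3.4e-04), and PAX3 was not called (log2 fold change 0.10 ± 0.09, adjusted p = 0.388).

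Of 16 neural crest regulators tested, 9 were lower and 2 higher. FOXD3, a regulator of both crest and pluripotent cells, had 2.24, 2.87, and 4.89 CPM in 4i/L/b cells and 48.3, 37.99, and 43.8 in TL2i cells (log2 fold change -3.69 ± 0.20, adjusted p = 3.1e-13). SOX10, the defining crest factor, had 29.8, 43.7, and 34.05 against 160.4, 99.1, and 125 CPM (log2 fold change -1.85 ± 0.14, adjusted p = 2.2e-10), and its target ERBB3 was lower too (log2 fold change -1.79 ± 0.11, adjusted p = 5.2e-12). Along the body axis, 5 HOX genes were higher and 6 lower of 13 tested. The higher ones were of groups 6 to 11 (HOXC10, HOXC8, HOXA11, HOXC6, and HOXD10), at no more than 3.50 CPM in any library, and the lower ones of groups 1 to 3, among them HOXB1 (log2 fold change -2.51 ± 0.34, adjusted p = 2.3e-06). Of these, HOXC8, HOXC6, and HOXD10 were not called without single libraries (adjusted p = 0.0578 to 0.115 without 4i/L/b replicate 2 or TL2i replicate 1 for HOXC8, adjusted p = 0.0703 to 0.0829 without 4i/L/b replicate 1 or TL2i replicate 1 or 3 for HOXC6, and adjusted p = 0.0604 to 0.153 without 4i/L/b replicate 2 or 3 or TL2i replicate 1 or 3 for HOXD10). The list median of -0.40 changed sign under several alternatives and is not read as a direction. Of 15 forebrain, midbrain, and hindbrain factors tested, 5 were higher and 5 lower. IRX3, a homeobox factor of this list, was lower (log2 fold change -2.11 ± 0.16, adjusted p = 1.7e-10).

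**Figure D3:**
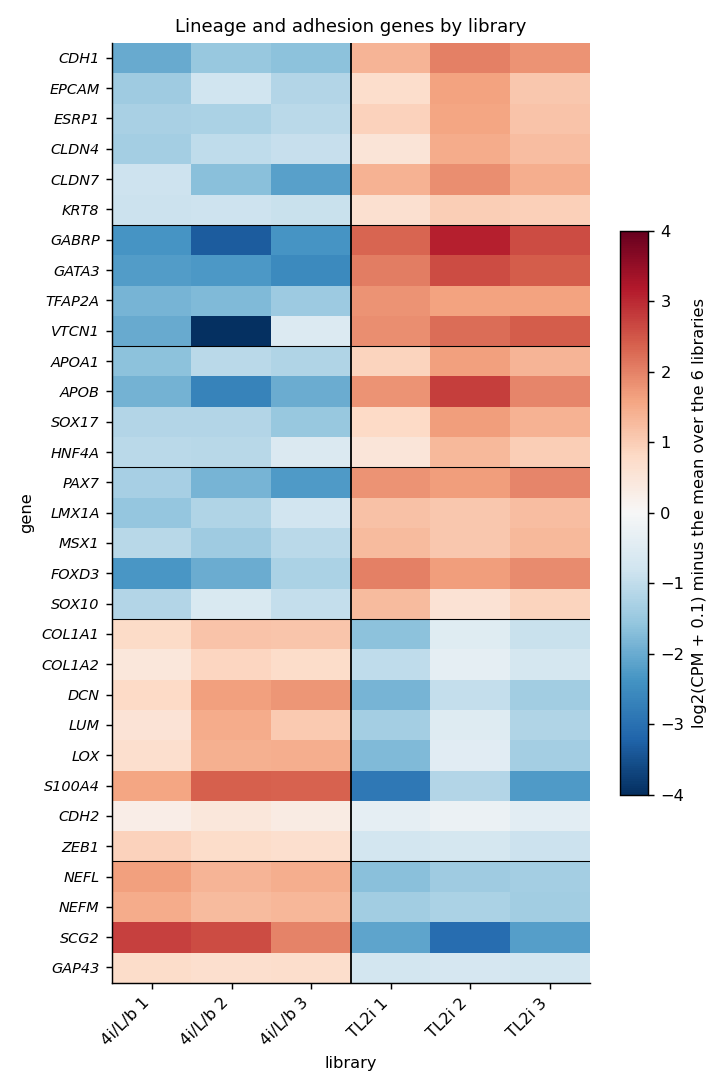
Log2(CPM + 0.1) minus the mean over the 6 libraries for 31 lineage and adhesion genes, 1 row per gene and 1 column per library, with red above and blue below the mean. From top to bottom the blocks are epithelial, trophoblast and amnion, endoderm, dorsal neural and crest, mesenchymal, and neuron genes. The upper 4 blocks are blue in the 3 4i/L/b libraries and red in the 3 TL2i libraries, and the lower 2 blocks are reversed. The 31 genes are a selection, and list members that went the other way, such as EOMES, ETS1, SNAI2, PDGFRB, and PRRX2, are not drawn.

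Genes of mitosis and DNA replication were mostly lower in 4i/L/b cells, and those of the G1 phase were not. All 22 mitosis genes were called lower (background, 21.3%), with a median of -0.73, and none overlapped between groups (26.2% of all genes tested were lower without overlap). AURKA, a spindle kinase, fell most, with 41.1, 31.5, and 34.3 CPM in 4i/L/b cells and 105, 78.1, and 83.5 in TL2i cells (log2 fold change -1.31 ± 0.12, adjusted p = 2.6e-09). CDC20, the activator of the anaphase-promoting complex, had 107, 90.7, and 96.9 against 250.2, 176, and 218 CPM (log2 fold change -1.13 ± 0.10, adjusted p = 4.4e-09). KIF20A, TTK, AURKB, and BUB1 fell by 1.09, 0.96, 0.94, and 0.89 on the log2 scale. These changes were moderate in size, and 3 of the 22 reached 1 on the log2 scale.

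Of 30 DNA replication genes, 19 were lower and 1 higher, with a smaller median of -0.30. ORC1 and CDT1, which license replication origins, fell by 0.95 and 0.84 on the log2 scale, and MCM2, a helicase subunit, by 0.67. CCNE2 was the only member that rose (log2 fold change 0.68 ± 0.16, adjusted p = 0.00101), and CCNE1 was lower (log2 fold change -0.54 ± 0.12, adjusted p = 7.3e-04). The count of lower genes was 12 without 4i/L/b replicate 3 or without TL2i replicate 1, and 11 in the fit of all 8 groups. Of 15 genes of the G1 phase, 5 were higher and the others were not called. CCND1, which encodes cyclin D1 and is also an ERK target, had 676, 614, and 641 against 364, 307, and 351 CPM (log2 fold change 0.92 ± 0.08, adjusted p = 3.5e-09), and the CDK inhibitors CDKN1A (log2 fold change 1.13 ± 0.10, adjusted p = 3.3e-09) and CDKN2B (log2 fold change 1.3 ± 0.26, adjusted p = 3.1e-04) rose with it. CDK2 and CDK4 were not called (-0.01 ± 0.09 and 0.07 ± 0.10), and neither was CDKN1B (p27; log2 fold change -0.28 ± 0.11, adjusted p = 0.052).

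Lists of p53 targets and of cell death genes were near the background. Of 18 p53 targets, 5 were higher and 4 lower (background, 21.6% higher and 21.3% lower), with PMAIP1 (NOXA; log2 fold change 2.10 ± 0.29, adjusted p = 2.8e-06) and the death receptor gene TNFRSF10B (log2 fold change 1.96 ± 0.10, adjusted p = 1.6e-13) among the rises, while MDM2 was not called (log2 fold change 0.12 ± 0.10, adjusted p = 0.338). Of 15 BCL2 family genes, 3 were higher and 4 lower. BCL2, the anti-apoptotic founder of the family, had 4.58, 2.12, and 1.66 CPM against 2.88, 1.01, and 2.16 and was not called (log2 fold change 0.47 ± 0.44, adjusted p = 0.412). The anti-apoptotic MCL1 was higher (log2 fold change 0.79 ± 0.08, adjusted p = 2.7e-08) and the pro-apoptotic BBC3 lower (log2 fold change -0.68 ± 0.17, adjusted p = 0.00255).

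Most genes of glycolysis and the hypoxia response were lower. Of 30 genes on this list, 25 were lower in 4i/L/b cells and 2 higher, with a median of -0.76. LDHA, which makes lactate, had 196, 207, and 234 CPM in 4i/L/b cells and 1122, 861, and 975 in TL2i cells (log2 fold change -2.22 ± 0.10, adjusted p = 1.4e-14). The glucose transporter SLC2A3 had 252, 275, and 265 against 769, 1199, and 900.1 CPM (log2 fold change -1.86 ± 0.11, adjusted p = 4.6e-12). BNIP3, a hypoxia-inducible mitophagy gene, had 57.1, 61.2, and 63.2 against 241, 196, and 204 CPM (log2 fold change -1.82 ± 0.09, adjusted p = 1.2e-13), and the lactate exporter SLC16A3 fell by 2.10 on the log2 scale. The regulatory enzyme PFKFB4 fell by 1.66 and the hypoxia marker CA9 by 1.42. The 2 exceptions that rose were PFKFB3 (log2 fold change 0.99 ± 0.08, adjusted p = 2.7e-10) and HK1 (log2 fold change 0.23 ± 0.08, adjusted p = 0.0233; adjusted p = 0.0752 to 0.106 without 4i/L/b replicate 1 or 3). The summed level of the list was 6850 to 7511 CPM in 4i/L/b libraries and 11247 to 12726 CPM in TL2i libraries.

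Of 32 oxidative phosphorylation genes, in comparison, 4 were called lower, among them SDHC, SDHA, and CYC1, and 28 were not called, with a median of -0.05. None of these 3 was called in every fit with 1 library left out (adjusted p = 0.0514 to 0.0666 without 4i/L/b replicate 1, 2, or 3 or TL2i replicate 1 or 3 for SDHC, adjusted p = 0.0903 without 4i/L/b replicate 3 for SDHA, and adjusted p = 0.0701 to 0.146 without 4i/L/b replicate 1, 2, or 3 or TL2i replicate 1, 2, or 3 for CYC1). Of 30 cholesterol and fatty acid synthesis genes, 7 were higher and 6 lower, shares near the background of 21.6% and 21.3%. FADS1 rose by 0.63 ± 0.08, and the fatty acid synthase gene FASN was lower (-0.73 ± 0.08). Of 17 genes controlled by ATF4, 7 were higher, including TRIB3 (log2 fold change 1.5 ± 0.24, adjusted p = 1.8e-05) and DDIT3 (log2 fold change 1.43 ± 0.21, adjusted p = 5.8e-06), and 3 lower, including DDIT4 (log2 fold change -1.75 ± 0.13, adjusted p = 5.6e-11), which is also induced by hypoxia.

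Of 10 DNA methylation genes tested, 4 were lower and 1 higher. DNMT3B, a de novo methyltransferase, had 42.4, 41.8, and 40.4 CPM in 4i/L/b cells and 111, 104, and 119.9 in TL2i cells (log2 fold change -1.43 ± 0.09, adjusted p = 6.7e-12), against 2913 to 3468 CPM in primed cells. TET1 and DNMT1 fell by 1.13 and 0.46 on the log2 scale, and DNMT3A was not called (log2 fold change 0.01 ± 0.08, adjusted p = 0.961). Of 18 imprinted genes, 7 were higher and 4 lower. PEG3 had 197, 198, and 194 against 636, 750.04, and 641 CPM (log2 fold change -1.78 ± 0.08, adjusted p = 4.2e-14), and NNAT 8.48, 11.99, and 11.7 against 106, 91.96, and 102 CPM (log2 fold change -3.23 ± 0.12, adjusted p = 9.8e-16), whereas MKRN3 rose from under 1 CPM (log2 fold change 2.38 ± 0.50, adjusted p = 4.6e-04).

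Estrogen receptor targets were examined because tamoxifen binds this receptor. ESR1 itself is on the list and rose, but its counts do not tell the cell's own gene from the STAT3-ERT2 vector. The other rises were MYBL1 (log2 fold change 2.19 ± 0.15, adjusted p = 4.3e-11), GREB1 (log2 fold change 0.31 ± 0.08, adjusted p = 0.00196), and CA12 (log2 fold change 0.61 ± 0.23, adjusted p = 0.0375; adjusted p = 0.0521 to 0.132 without 4i/L/b replicate 1, 2, or 3 or TL2i replicate 1 or 3), and the decreases PDZK1 (log2 fold change -1.55 ± 0.20, adjusted p = 9.3e-07) and NRIP1 (log2 fold change -0.38 ± 0.08, adjusted p = 2.4e-04), of 10 genes tested. PGR and TFF1 were too low to be tested. Of 20 interferon-stimulated genes tested, 5 were higher and 5 lower, also near the background of 21.6% and 21.3%. IFITM1, an antiviral membrane protein, had 0, 2, and 1 counts in the 4i/L/b libraries and 33, 25, and 21 in the TL2i libraries, at least a 4.82-fold decrease, with 359 to 433 CPM in primed cells.

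**Figure D4:**
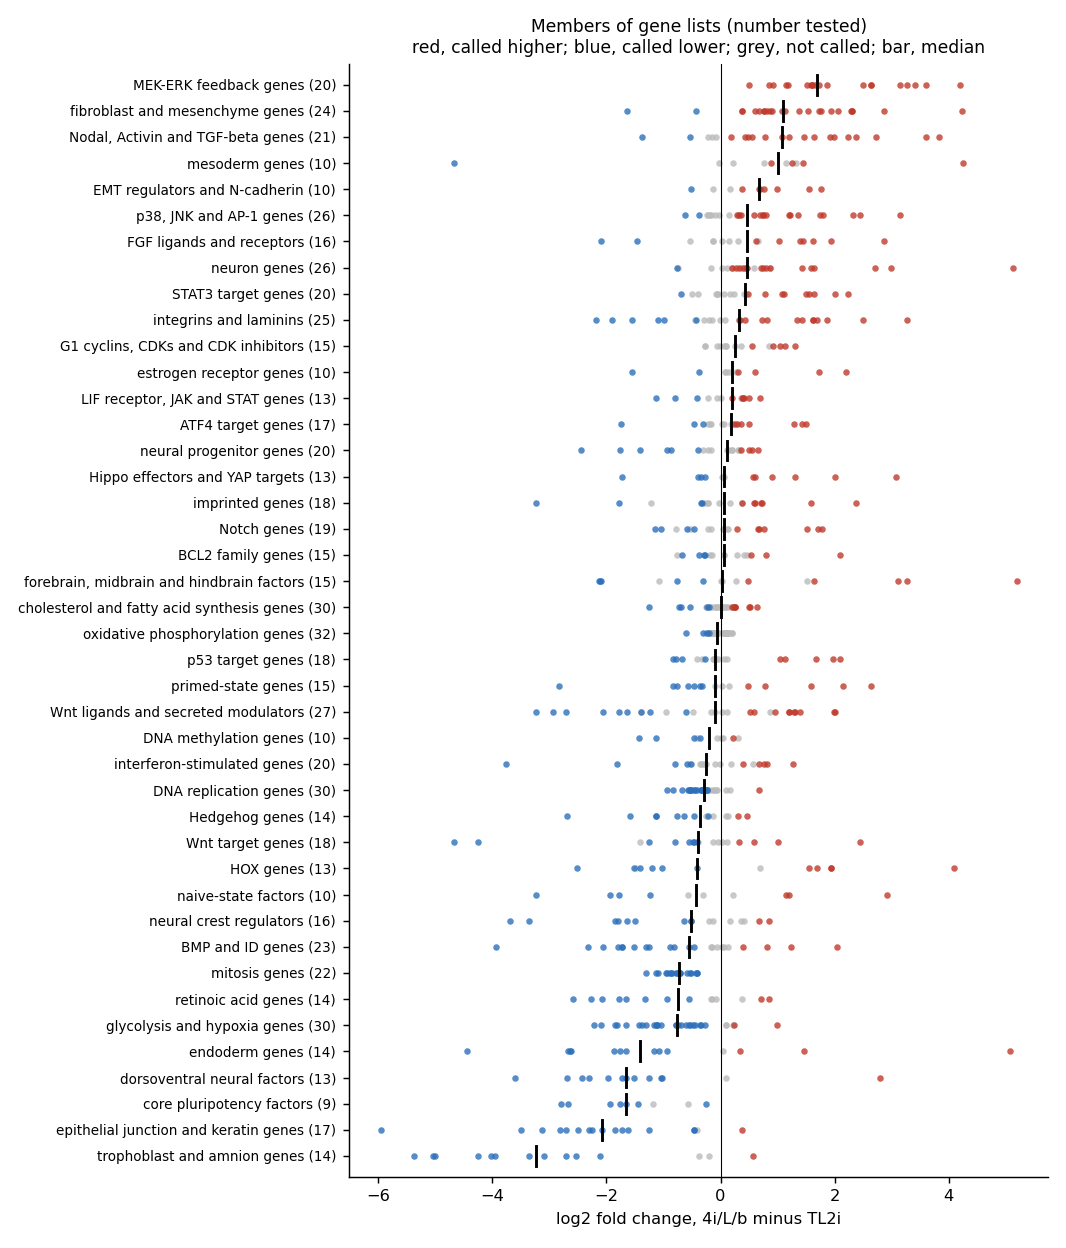
Log2 fold change (4i/L/b minus TL2i) of each tested member of 42 gene lists, 1 point per gene, with the number tested in parentheses and a black bar at the list median. Red points were called higher, blue points lower, and grey points were not called. MEK-ERK feedback, fibroblast, and Nodal, Activin, and TGF-beta genes stand at the top, and core pluripotency, epithelial, and trophoblast and amnion genes at the bottom.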

How the data were processed

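Total RNA was extracted, 200 ng were made into directional mRNA libraries, and single reads of 75 bases were sequenced. The deposited tables hold raw read counts per gene, which the authors made with bcl2fastq, cutadapt, HISAT2, and HTSeq according to the submitters' processing notes. The genome build, the annotation, and the handling of reads that match several genes are not given in the sources used here.

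Counts of the 3 4i/L/b and 3 TL2i libraries were filtered with filterByExpr, scaled with TMM, and fitted with edgeR 4.0.16 (limma 3.58.1, R 4.3.3). A gene low in 1 group can pass this filter through the other group alone, and list counts and medians include such genes. The quasi-likelihood test was used with the group as the only term, and p-values were adjusted by Benjamini-Hochberg over the 13543 genes tested. DESeq2 1.42.0, other scalings and filters, thinning, a replicate block, and leaving out single libraries were the alternatives. Primed levels were scaled over 12 libraries, which lowers CPM by 2.54% in 4i/L/b and 2.88% in TL2i cells. A list's median "with bounds" sets a gene with at most 3 counts in every library of 1 group to the ratio against 3 counts per library. Such bounds cover counting error only, since molecular identifiers are not mentioned for these libraries. Sequences were not used here, and a few genes of the lists are not reported here by name.

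The 43 gene lists held 884 distinct symbols, of which 855 were found, and some genes stand on several lists. The comparison and the lists were chosen with earlier results of these data known. Genes were named by rule, namely the 10 largest rises and falls among called genes whose groups do not overlap and whose log2 CPM averages 3 or more, up to 6 called members per list with the largest change, members not called that define a list or a medium, 9 genes that the study measured, and the 5 most counted genes that changed by at least 1. Outside this rule, and chosen after their values were seen, were ACVR2B, BMPR2, CCNE1, CLDN6, CYP26A1, DCX, EPCAM, FOXH1, GFAP, HK1, ID2, ID4, MAPK13, MAPKAPK3, NHLH1, NOG, PDGFRB, PFKFB3, PRRX2, SNAI1, SPRED1, SPRED2, SPRY2, TEAD3, TGFBR2, TUBB3, and those marked so in the text.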

Additional observations from a re-analysis of the deposited data

Results flagged for a closer look

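Among 27 genes whose primed levels are given or plotted, 6 had 1 primed library far above the other 5, judged by the gap to the nearest library relative to the range. This test marks about 1 in 20 groups by chance. For DUSP6 the highest primed library had 679.6 CPM, against 558.8 CPM for the next. VTCN1 had 140.05 CPM in its highest library, and the next had 118 CPM. The naive-state genes KLF4, TBX3, and DPPA3, all low in primed cells, had 2.38, 0.703, and 2.81 CPM in their highest primed library. LEF1 had 0.889 CPM in 1 primed library and 0 in the other 5. None of these values enters the test of 4i/L/b against TL2i.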

How the results depend on the processing

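In every alternative that was run, no gene called in both fits changed its sign. The called genes numbered 5619 with DESeq2, 5970 with upper-quartile factors, 5970 without a filter, 5427 with at least 10 counts in every library, and 4866 to 5901 with 1 library left out. The fit of all 8 groups called 2929 genes (1568 higher, 1361 lower), and a minimum change of 1 on the log2 scale left 1736 (965 higher, 771 lower). With 3 libraries per group, deviations from the group means could not show whether replicate numbers pair the libraries. Correlations of same-numbered deviations were 0.11, 0.10, and -0.01, and those of other numbers -0.12 to 0.02. With the replicate block 6484 genes were called, 3210 higher and 3274 lower, including 5812 of the 5814. In the fit of all 8 groups, list counts moved to 10 for Nodal, Activin, and TGF-beta genes, 7 for neuron, 4 for dorsoventral, 7 for trophoblast and amnion, 2 for endoderm, and 11 for DNA replication genes. With the minimum change of 1 they were 8 for p38, JNK, and AP-1, 6 for neuron, 13 for fibroblast, 2 for EMT, 0 for DNA replication, 3 for mitosis, and 13 for glycolysis and hypoxia genes. With at least 10 counts in every library, 2 trophoblast and amnion genes were called lower, since this filter drops genes that are low in either group. Some list medians changed sign, namely cholesterol genes (-0.0208 with upper-quartile factors, -0.0897 with library totals), Hippo genes (-0.0359 with library totals), BCL2 family genes (-0.0484 with library totals, -0.0452 with at least 10 counts), naive-state factors (0.21 with at least 10 counts), HOX genes (0.65 without a filter, 0.86 with all 8 groups), and interferon-stimulated genes (0.18 without a filter). With 1 library left out, medians ranged from -0.48 to 0.83 for HOX genes, -0.11 to 0.17 for neural progenitor genes, -0.11 to 0.0831 for BCL2 family genes, -0.15 to 0.13 for Notch genes, and -0.18 to 0.0196 for interferon-stimulated genes, and the count of lower DNA replication genes from 12 to 18. The filters changed which genes were tested, and the other causes were not tested. Depth limits genes near the floor of 3 counts, which was 0.292 to 0.375 CPM in 4i/L/b and 0.149 to 0.216 CPM in TL2i libraries.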

Other observations

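The genes and families described next were chosen after their values were seen. Of 12 clustered protocadherin beta genes tested, 10 were higher in 4i/L/b cells by edgeR (background, 21.6% of genes tested), with a median log2 fold change of 1.98. These cadherin-like surface proteins have near-identical copies, and reads that match several copies may have been split or dropped, so that the values of single genes are uncertain. Among 15 matrix metalloproteinase genes tested, 9 were higher (median, 1.06). MMP3 had 233, 305, and 256 counts in the 4i/L/b libraries and 3, 0, and 1 in the TL2i libraries, at least a 158-fold difference. Of 9 chemokine genes tested, 5 were higher and 1 lower. Besides CCL2, the neutrophil attractants CXCL8 (log2 fold change 3.23 ± 0.58, adjusted p = 8.6e-05, but adjusted p = 0.14 in the fit of all 8 groups) and CXCL1 were higher, the latter with 20, 15, and 18 counts against 0, 0, and 0, at least 10.3-fold. Annexins, which bind membranes in the presence of calcium, were higher in 6 of 10 cases (median, 0.31), and NUP nucleoporins lower in 10 of 20 (median, -0.21).

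Some genes had 3 counts or fewer in each 4i/L/b library and at least 30 in each TL2i library. CYP1A1, a target of the aryl hydrocarbon receptor, had 0, 0, and 3 counts in 4i/L/b libraries and 304, 386, and 282 in TL2i libraries, which makes it at least 60.6-fold lower in the former. The fibrinogen chain gene FGB had 1, 0, and 2 against 111, 151, and 96 counts (at least 22.2-fold lower) and the cathepsin gene CTSO 0, 0, and 0 against 102, 103, and 57 (at least 15.9-fold lower). The 6 primed libraries form 2 sets of 3 by the letter in their column names. Requiring at least 30 counts in each library of 1 set and at most 3 in each of the other, 4 genes (GRHL2, HKR1, HRASLS, and KRBOX4) were read in 1 set only, and 1 gene in the other set only. Of the 4, 3 were also read in TL2i libraries and absent from 4i/L/b libraries by the same limits, among them KRBOX4 with 1, 0, and 1 counts against 227, 247, and 153 and HRASLS with 0, 0, and 0 against 44, 33, and 32. The 1 gene of the other set had 24 to 38 counts in 4i/L/b and 12 to 36 in TL2i libraries, so it was absent from neither group. No cause was tested.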
